A study of Homo sapiens with 18 samples.

Results

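Of the 58051 genes in the tables, 30 were chosen by name as genes of sterol synthesis, sterol uptake and transport, and sterol efflux, and all 30 were matched by Ensembl ID. They comprise 7 genes of the mevalonate arm of cholesterol synthesis, 11 of its squalene and post-squalene arm, 4 that control the transcription factor SREBP2, 3 of sterol uptake and intracellular transport, and 5 of the liver X receptor (LXR) system. RNA-seq was made from NCI-H460, a large-cell lung carcinoma line, labelled as wild type and epithelial, in a parental population and in 2 populations (resistant 1 and resistant 2) that are resistant to decitabine together with all-trans retinoic acid (ATRA). Each population received either the solvent DMSO at 0.7% v/v or 2 µM ATRA with decitabine at a dose labelled as 50 µM, written ATRA+DAC below, with 3 libraries in each of the 6 groups and 18 in all. All groups grew in RPMI-1640 with 10% serum, a source of lipoprotein cholesterol, were treated 24 h after seeding and were harvested at 72 h. Decitabine, a nucleoside drug, depletes DNA methyltransferases once incorporated during replication, and ATRA activates retinoic acid receptors. Each resistant population is 1 population of cells, so its values describe that population and not resistance in general.

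Cells make cholesterol from acetyl-CoA through mevalonate, farnesyl diphosphate, squalene and lanosterol. When membrane sterol is low, SCAP carries SREBP2 from the endoplasmic reticulum to the Golgi, where it is cut and becomes a transcription factor for the synthesis and uptake genes, for its own gene SREBF2 and for INSIG1. When sterol is plentiful, INSIG1 and INSIG2 hold SCAP back, and oxysterols activate LXRα (NR1H3) and LXRβ (NR1H2), which raise the efflux pumps ABCA1 and ABCG1 and the ubiquitin ligase MYLIP, a brake on lipoprotein uptake.

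Promoter sequence, taken from RefSeq on GRCh38.p14, was found for 26 of the 30 members (35 promoters, since some have several starts); ABCG1, ACAT2, FDFT1 and SQLE had no entry. The 5 shown are those of the SREBP2 gene itself, of INSIG1 and ABCA1, which differed most between the untreated populations, and of FDPS and STARD4, which fell in treated parental cells. Each line gives the 250 bases before the RefSeq start, 5′ to 3′ on the gene's strand. Capitals mark matches, on either strand, to the sterol regulatory element core TCACNCCAC or its shorter form CACNCCAC, to the CCAAT box, the letters read by NF-Y, or, in ABCA1, to a variant of the LXR direct repeat in which the half-sites read AGGTTA and CGGTCA.
SREBF2, chr22:41832855-41833104, plus strand: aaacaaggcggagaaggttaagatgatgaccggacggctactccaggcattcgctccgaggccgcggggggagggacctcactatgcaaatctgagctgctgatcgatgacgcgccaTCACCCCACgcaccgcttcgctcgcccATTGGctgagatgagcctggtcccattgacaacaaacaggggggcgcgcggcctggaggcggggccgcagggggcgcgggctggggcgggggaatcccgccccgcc
INSIG1, chr7:155297628-155297877, plus strand: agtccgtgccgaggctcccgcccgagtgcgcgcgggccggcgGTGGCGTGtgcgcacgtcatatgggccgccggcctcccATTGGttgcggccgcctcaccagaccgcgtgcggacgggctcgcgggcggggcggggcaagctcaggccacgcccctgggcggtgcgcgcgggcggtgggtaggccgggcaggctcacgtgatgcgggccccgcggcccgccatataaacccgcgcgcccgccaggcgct
FDPS, chr1:155308616-155308865, plus strand: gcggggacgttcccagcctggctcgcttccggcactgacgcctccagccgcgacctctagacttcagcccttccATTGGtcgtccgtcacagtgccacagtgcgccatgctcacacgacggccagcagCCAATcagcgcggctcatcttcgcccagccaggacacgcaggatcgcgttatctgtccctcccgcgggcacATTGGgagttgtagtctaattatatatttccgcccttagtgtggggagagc
STARD4, chr5:111512536-111512785, minus strand: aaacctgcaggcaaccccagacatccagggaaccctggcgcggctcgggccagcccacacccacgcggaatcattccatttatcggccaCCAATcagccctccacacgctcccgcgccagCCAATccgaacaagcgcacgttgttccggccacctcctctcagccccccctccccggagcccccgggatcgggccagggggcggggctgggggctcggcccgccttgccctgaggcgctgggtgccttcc
ABCA1, chr9:104928156-104928405, minus strand: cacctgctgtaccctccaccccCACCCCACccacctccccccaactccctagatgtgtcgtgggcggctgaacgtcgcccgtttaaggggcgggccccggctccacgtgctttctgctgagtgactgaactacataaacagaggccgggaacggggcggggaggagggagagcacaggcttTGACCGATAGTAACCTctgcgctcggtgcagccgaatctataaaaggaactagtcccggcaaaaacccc
Over windows of 300 bases, 250 before and 50 after the start, TCACNCCAC was present in 1.13% of 35116 promoters and in 1 member, SREBF2, where it begins 133 bases before the start. The shorter core, whose matches include those of the longer one, was present in 5.87% of all promoters and in 5 members (SREBF2, INSIG1, IDI1, SC5D and ABCA1). CCAAT was present in 34.6% of all promoters and in 21 of the 35 member promoters (60%), which belong to 19 members. The LXR direct repeat, a pair of AGGTCA half-sites with any 4 bases between them, matched 7 promoters (0.0199%) and no member, and the variant matched the ABCA1 promoter only (0.00285%), beginning 69 bases before the start. The shorter core and the LXR variant were added after the first matches had been seen. The half-sites of the variant are those found in the ABCA1 promoter, so its match there and its rarity are no evidence. A match describes the letters and is not a measured binding site.

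The DMSO libraries held 116.9M to 140.9M reads, and the ATRA+DAC libraries 113.2M to 175.5M over the 49814 genes with usable values in both tables. The ATRA+DAC table had lost its decimal points, and their positions were restored for 28 members; CYP51A1 and NPC1L1 have values in DMSO only. Reads scaled to library size (CPM, counts per 1e6 reads) below place all 18 libraries on 1 scale, whereas differences between populations were fitted on the deposited normalized counts of 1 treatment at a time. The keratins KRT8, KRT18 and KRT19 were abundant in every group, whereas the epithelial genes CDH1 and EPCAM averaged 1.38 and 93.5 normalized counts in untreated parental cells. In treated parental cells CDH1 averaged 1403 and EPCAM 1028, against 61.2 and 94.8 in treated resistant 1 and 42.2 and 58.8 in treated resistant 2. Markers of other cell types also differed in DMSO. Of 4 fibroblast genes tested, 3 were lower and 1 higher in resistant 1, and 1 lower and 2 higher in resistant 2. LUM was lower in both (-4.56 and -5.07), COL1A1 lower in resistant 1 (-4.84) and higher in resistant 2 (1.43), and DCN higher in resistant 1 (2.36). The summed count of 6 fibroblast genes ranged from 2795 to 3001 among parental libraries, from 466 to 523 for resistant 1 and from 3073 to 4091 for resistant 2. The sum of 3 endothelial genes was at most 57.5 in any DMSO library. PECAM1 was higher in resistant 2 (3.86), and CDH5 was at 0 in untreated parental cells. The sum of 4 immune genes was at most 397, with CD3E at 0 in untreated parental cells. CD14 averaged 312 normalized counts there and was lower in resistant 1 and resistant 2 (-1.64 and -3.18). CD68 was higher in resistant 1 (1.80) and not called in resistant 2 (0.91). The part of these genes in the results was not tested. In bulk RNA, fewer cells of a type and less RNA per cell cannot be told apart. The titles call the replicates biological but do not say that they came from separate cultures, so p-values measure the spread between these libraries.

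Without drug, both resistant populations held less mRNA of most synthesis enzymes, with lower levels in resistant 2. Of the 30 members, 16 were lower and 5 higher in resistant 1 than in parental cells, and 22 were lower and 6 higher in resistant 2 (limma, Benjamini-Hochberg adjusted p under 0.05). Among all 21643 genes tested, 55.9% were called in resistant 1 (26.6% lower, 29.3% higher) and 61.9% in resistant 2 (29.8% lower, 32.1% higher). The median log2 difference of the members was -0.55 in resistant 1 and -1.13 in resistant 2, beside 0.01 and 0.02 over all genes. Both comparisons use the same parental libraries. The plot of the population differences shows every member by role.

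**Figure D1:**
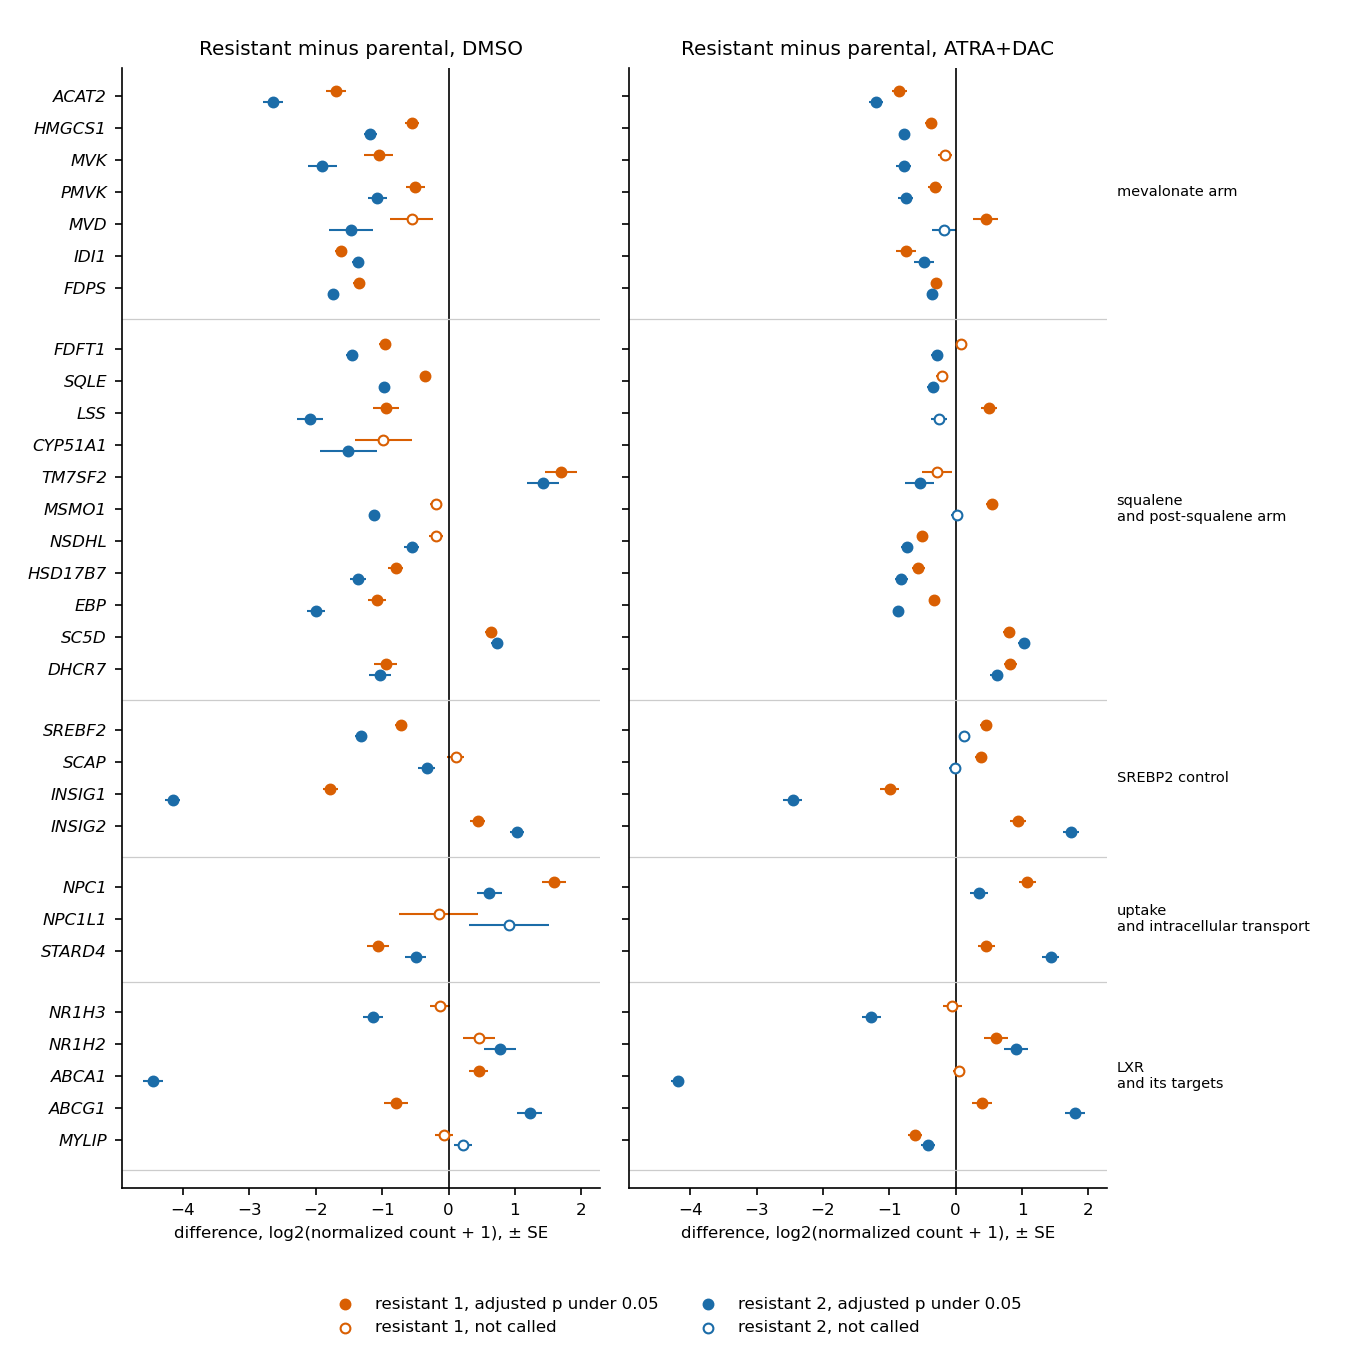
Difference of each resistant population from parental cells for the 30 members in DMSO (left) and, without CYP51A1 and NPC1L1, in ATRA+DAC (right). Points are log2 differences and bars standard errors of the limma fit, with 3 libraries per group. Filled points passed the threshold. Most synthesis genes lie left of 0 in DMSO and closer to 0 in ATRA+DAC. INSIG1 stays left in both, as do ACAT2, IDI1, HMGCS1 and EBP among others.

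In the mevalonate arm, 6 of 7 genes were lower in resistant 1 and 7 of 7 in resistant 2. ACAT2, the cytosolic thiolase that joins acetyl-CoA units at the head of the route, is on chromosome 6 (chr6:159760328-159779055, GRCh38). ACAT2 stood at 86.0, 73.7 and 75.6 CPM in the parental libraries, at 26.2, 23.8 and 24.5 in resistant 1 and at 10.0, 12.7 and 16.1 in resistant 2. The 3 groups did not overlap, and resistant 2 was lowest. Its log2 difference from parental cells was -1.70 (SE 0.15, limma adjusted p = 3.142e-06) in resistant 1 and -2.64 (SE 0.15, limma adjusted p = 6.948e-08) in resistant 2. FDPS, which makes farnesyl diphosphate, differed by -1.35 and -1.74 (SE 0.09 each). IDI1, the isopentenyl diphosphate isomerase, was the mevalonate gene lower in resistant 1 than in resistant 2, by -0.25 (limma adjusted p = 0.0396), a call that ended without resistant 1 replicate 1 (-0.19) or 3 (-0.26) or resistant 2 replicate 2 (-0.23) or 3 (-0.24). HMGCS1, the synthase that makes HMG-CoA, differed by -0.55 and -1.18, and the kinases MVK and PMVK by -1.05 and -0.50 in resistant 1 and by -1.90 and -1.07 in resistant 2. The PMVK call in resistant 1 ended without parental replicate 1 (-0.40, limma adjusted p = 0.0544). MVD, the decarboxylase, varied between parental libraries, from 9.61 CPM in replicate 3 to 23.9 in replicate 2, and its difference in resistant 1 (-0.56, SE 0.33) did not pass; without parental replicate 3 it was -0.95 and passed (limma adjusted p = 0.0116).

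In the squalene and post-squalene arm, 6 of 11 genes were lower and 2 higher in resistant 1, and 9 lower and 2 higher in resistant 2. LSS, the cyclase that folds squalene epoxide into lanosterol (chr21:46188141-46228824), stood at 40.1, 36.9 and 23.6 CPM in parental libraries, at 16.7, 15.7 and 20.5 in resistant 1 and at 7.09, 6.84 and 9.70 in resistant 2. Parental replicate 3 was the lowest of its group yet above all resistant libraries. The log2 difference of LSS was -0.94 (SE 0.20) in resistant 1 and -2.09 (SE 0.20) in resistant 2. EBP, the sterol isomerase, differed by -1.07 and -2.00. FDFT1, which makes squalene, differed by -0.96 and -1.45, and SQLE, which epoxidises it, by -0.36 and -0.97. DHCR7, which carries out a last step of cholesterol synthesis, was lower by a like amount in both, -0.95 and -1.03, and the difference between the resistant populations was 0.08 (SE 0.17, limma adjusted p = 0.716). MSMO1 and NSDHL, which act in removing some of the methyl groups of lanosterol, passed in resistant 2 (-1.12 and -0.55) and not in resistant 1 (-0.19 each). HSD17B7, which works beside them, differed by -0.80 and -1.36, and CYP51A1, the lanosterol demethylase, by -0.98 (SE 0.43, limma adjusted p = 0.0732) and -1.51 (limma adjusted p = 0.00991). Without parental replicate 2 the latter was -1.23 and lost its call, while resistant 1 gained one without parental replicate 3 (-1.41) or resistant 1 replicate 3 (-1.34).

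The members that went the other way in this arm were TM7SF2, a sterol C14 reductase, and SC5D, the sterol C5 desaturase. TM7SF2 (chr11:65111845-65116384) had 2.39, 2.88 and 1.32 CPM in parental libraries, 6.87, 6.22 and 8.02 in resistant 1 and 6.53, 5.18 and 5.38 in resistant 2. All 6 resistant libraries were above all 3 parental ones. The log2 difference was 1.70 (SE 0.24) in resistant 1 and 1.42 (SE 0.24) in resistant 2. SC5D was higher by 0.64 and 0.73 (SE 0.09 each). TM7SF2 overlaps VPS51 on the same strand, a gene with 2602 normalized counts beside 566 for TM7SF2 on average in DMSO, so reads in the shared stretch are uncertain.

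SREBF2, which encodes SREBP2, was lower in resistant 1 (log2 difference -0.71, SE 0.10) and in resistant 2 (-1.32, SE 0.10). INSIG1 (chr7:155297776-155310235), the sterol-regulated anchor of SCAP and itself an SREBP2 target, had the second largest difference among the members. It was at 90.7, 88.4 and 80.8 CPM in parental libraries, 25.1, 27.4 and 25.3 in resistant 1 and 5.65, 4.31 and 4.88 in resistant 2. The groups were far apart, with fitted falls of 3.44-fold in resistant 1 and 17.8-fold in resistant 2 (log2 difference -1.78 and -4.15, SE 0.11 each, limma adjusted p = 2.086e-07 and 2.579e-10). INSIG2 (chr2:118088452-118110997), the anchor encoded by another gene, ran in the opposite order. INSIG2 was at 20.5, 19.1 and 23.2 CPM in parental libraries, 30.3, 29.9 and 27.2 in resistant 1 and 40.6, 43.9 and 45.4 in resistant 2. Its log2 difference was 0.44 (SE 0.11) in resistant 1 and 1.03 (SE 0.11) in resistant 2, and the 3 groups did not overlap. SCAP, the escort of SREBP2, was close to parental in resistant 1 (0.11, SE 0.13, limma adjusted p = 0.498) and lower in resistant 2 (-0.33). There the libraries overlapped, and the call ended without parental replicate 1 or 2 or resistant 2 replicate 1 or 2 (-0.24 to -0.30).

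NPC1 (chr18:23506184-23586898), which exports cholesterol from lysosomes, stood at 103, 115 and 119 CPM in parental libraries, 325, 374 and 344 in resistant 1 and 245, 165 and 131 in resistant 2. Every resistant library was above every parental one, and resistant 1 was highest. The log2 difference was 1.59 (SE 0.18) in resistant 1 and 0.62 (SE 0.18, limma adjusted p = 0.0131) in resistant 2; without parental replicate 1 the latter was 0.56 with an adjusted p of 0.0509. STARD4 (chr5:111496033-111512590), a soluble carrier that moves sterol between membranes, stood at 378, 485 and 626 CPM in parental libraries, 241, 262 and 217 in resistant 1 and 342, 375 and 333 in resistant 2. Resistant 1 was lowest, by -1.07 (SE 0.16). In resistant 2 the difference was -0.50 (SE 0.16, limma adjusted p = 0.0204), and the call ended without parental replicate 3 (-0.29, limma adjusted p = 0.0599), resistant 2 replicate 1 (-0.48) or resistant 2 replicate 3 (-0.45). NPC1L1, the sterol importer of the gut surface, was near the detection limit, between 4.55 and 33.9 normalized counts in the 9 DMSO libraries, and passed in neither population.

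The efflux genes did not move as 1 group. ABCA1 (chr9:104781002-104928237), which loads cholesterol onto apolipoproteins, had 14.8, 12.2 and 14.99 CPM in parental libraries, 17.0, 21.6 and 20.8 in resistant 1, and 0.609, 0.648 and 0.650 in resistant 2. Resistant 2 was 21.9-fold below parental cells (log2 difference -4.45, SE 0.15, limma adjusted p = 1.090e-09), the largest difference of any member in DMSO. Resistant 1 was slightly above (0.46, SE 0.15, limma adjusted p = 0.0198), a call that ended without parental replicate 2 (0.34), resistant 1 replicate 2 (0.38) or resistant 1 replicate 3 (0.42). ABCG1 (chr21:42199689-42297244), the pump that passes cholesterol to high-density lipoprotein, did the reverse. ABCG1 had 21.98, 25.9 and 23.3 CPM in parental libraries, 13.996, 14.1 and 14.1 in resistant 1, and 79.9, 52.4 and 42.2 in resistant 2. No groups overlapped, with log2 differences of -0.79 in resistant 1 and 1.23 in resistant 2 (SE 0.19 each). Of the receptors, NR1H3 was lower in resistant 2 (-1.13, SE 0.15) and NR1H2 higher (0.77, SE 0.24, limma adjusted p = 0.0154), the latter with overlapping libraries and no call without parental replicate 3 (0.53) or resistant 2 replicate 1 (0.65); neither passed in resistant 1 (-0.13 and 0.46). MYLIP passed in neither population (-0.07 and 0.22).

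Set directly against each other in DMSO, the resistant populations differed in 23 of 30 members, with 19 higher in resistant 1 and 4 lower. Among all genes tested 53.4% were called, 27.4% higher and 26% lower in resistant 1. The median difference of the members was 0.55, beside 0.02 over all genes. The 4 lower in resistant 1 were IDI1, INSIG2, STARD4 and ABCG1. The largest were ABCA1 (4.91, SE 0.15), INSIG1 (2.37, SE 0.11), ABCG1 (-2.02, SE 0.19) and LSS (1.15, SE 0.20). By means, resistant 1 lay between parental cells and resistant 2 in CPM of INSIG1, ACAT2 and LSS, and outside that range for NPC1, STARD4 and ABCG1.

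Proliferation genes differed in the same comparisons. All 5 of MKI67, TOP2A, CCNB1, PCNA and MCM2 were lower in both resistant populations, in DMSO and in ATRA+DAC. Their summed normalized count in DMSO ranged from 207676 to 247179 among parental libraries, from 90289.5 to 102624 for resistant 1 and from 47710.5 to 71297 for resistant 2, and no gene was at 0. Under treatment the same sums ranged from 254454 to 257996, from 134737 to 164490 and from 97170.6 to 138797. In resistant 2 all 5 rose with treatment (log2 responses 0.47 to 0.98), CCNB1 and MCM2 with overlapping libraries. Only PCNA passed in parental cells (0.78) and in resistant 1 (0.53). The part of proliferation in the sterol gene differences and responses was not tested.

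Treatment lowered most synthesis genes in parental cells. Of 28 members, 17 fell and 4 rose, whereas 64.5% of the 19925 genes tested were called, of which 28.4% of all genes fell and 36% rose. The median response of the members was -0.36, beside 0.03 over all genes, and 13 of 17 synthesis genes fell. In resistant 1, 7 members fell and 4 rose, beside 28.9% of all genes called (13.8% lower, 15.1% higher). In resistant 2, 2 fell and 4 rose, beside 19.8% of all genes called (9.64% lower, 10.2% higher). The median member response was -0.11 in resistant 1 and 0.03 in resistant 2. In each resistant population, same-numbered treated and untreated libraries deviated together. A fit with the replicate number of each population as a block, chosen after seeing the data, gave 13 falls and 5 rises in resistant 1 (23.2% and 21.3% of all genes), and 2 falls and 8 rises in resistant 2 (18.8% and 15.9%). In resistant 2 limma called 0 of 17 synthesis genes lower, with 1 at an unadjusted p under 0.05 and 0 called by edgeR or DESeq2.

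**Figure D2:**
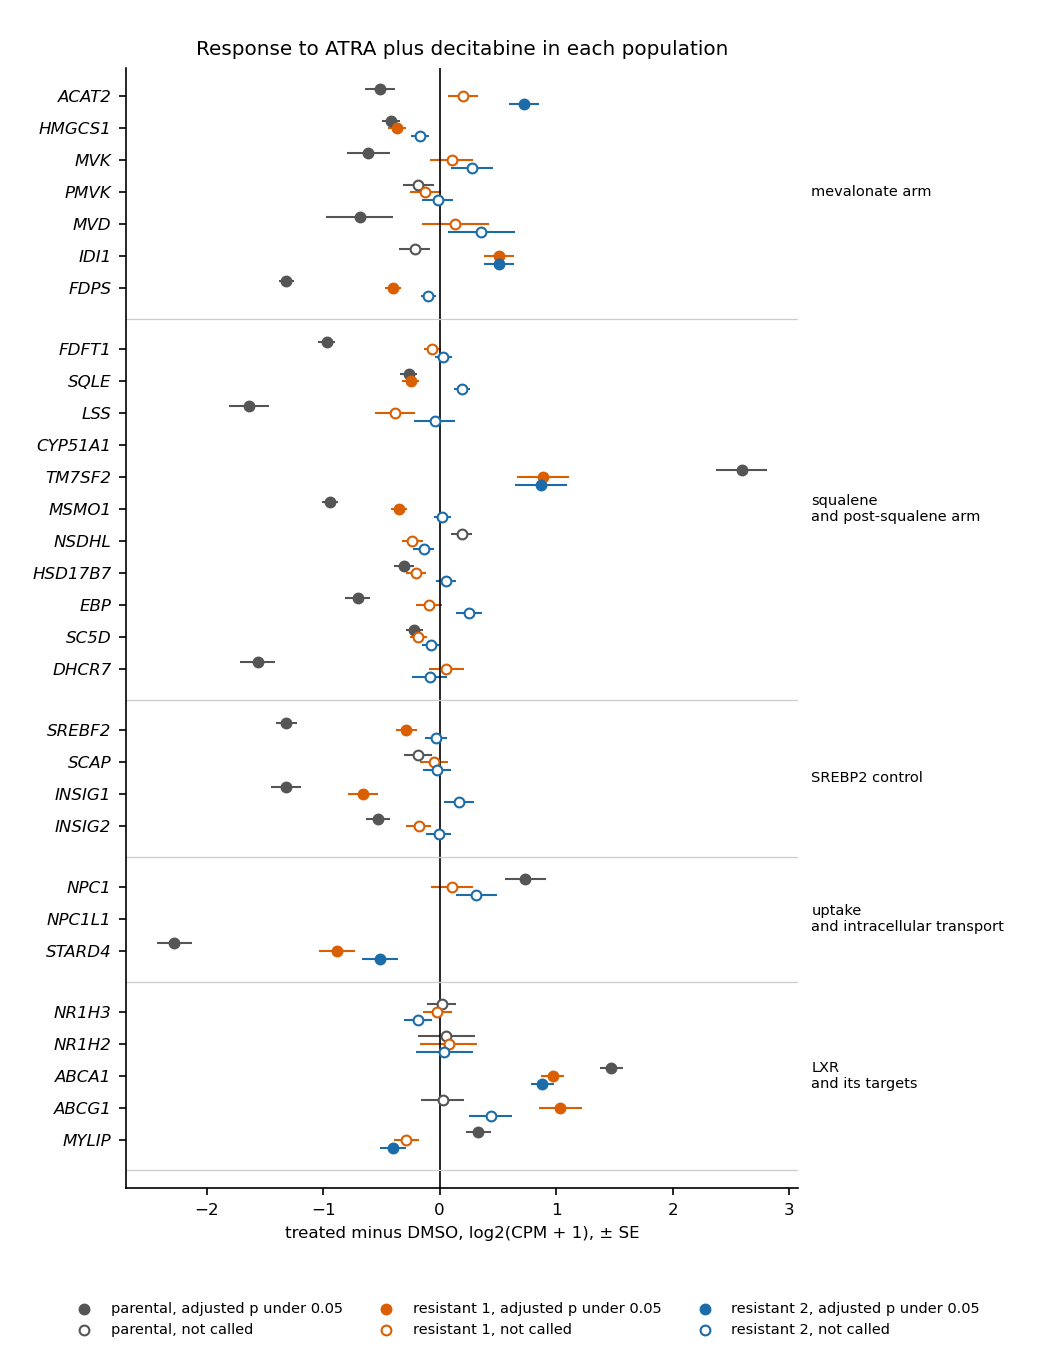
Response to ATRA plus decitabine of each member except CYP51A1 and NPC1L1 in parental, resistant 1 and resistant 2 cells. Points are treated minus DMSO differences in log2(CPM + 1) and bars standard errors, with 3 libraries per group. Parental points lie furthest left for STARD4, LSS, DHCR7, FDPS, INSIG1 and SREBF2, and furthest right for TM7SF2.

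Among parental synthesis genes the largest falls were those of LSS and DHCR7. LSS went from the DMSO values above to 9.79, 9.79 and 9.97 CPM, below every untreated parental library. Its fall was 1.64 on the log2 scale (log2 response -1.64, SE 0.17, limma adjusted p = 3.882e-07), against -0.38 in resistant 1 and -0.04 in resistant 2 (limma adjusted p = 0.117 and 0.937; with the replicate block 0.0357 in resistant 1). Treated LSS was 11.4, 13.2 and 15.2 CPM in resistant 1 and 8.32, 6.39 and 8.03 in resistant 2; treated resistant 1 was above treated resistant 2 (0.76, SE 0.12). DHCR7 responded by -1.56 (SE 0.15) in parental cells, FDPS by -1.32 (SE 0.07), FDFT1 by -0.97 (SE 0.07) and MSMO1 by -0.94 (SE 0.07). Of these 4, FDPS (-0.40) and MSMO1 (-0.35) also fell in resistant 1.

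ACAT2 moved down in parental cells and up in resistant 2. It reached 56.8, 52.3 and 55.0 CPM in treated parental libraries, 29.8, 29.6 and 26.6 in resistant 1 and 18.2, 22.7 and 24.7 in resistant 2. The log2 response was -0.51 (SE 0.13) in parental cells, 0.20 (limma adjusted p = 0.283, with the replicate block 0.015) in resistant 1 and 0.73 (SE 0.13, limma adjusted p = 7.247e-04) in resistant 2. ACAT2 overlaps TCP1 on the opposite strand, which averaged 41830.2 normalized counts in DMSO beside 4461 for ACAT2. IDI1 did not pass in parental cells (-0.21) and rose in both resistant populations (0.51 each, SE 0.13), the resistant 2 call ending without its ATRA+DAC replicate 2 (0.37).

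TM7SF2 rose in all 3 populations. Its treated values were 22.03, 15.2 and 16.9 CPM in parental libraries, 12.6, 13.7 and 15.4 in resistant 1 and 17.2, 8.501 and 9.46 in resistant 2. Each treated group was above its own untreated group without overlap. The log2 response was 2.59 (SE 0.22, limma adjusted p = 2.717e-08) in parental cells, against 0.89 for resistant 1 and 0.87 for resistant 2 (SE 0.22 each). After treatment resistant 2 was lower than parental (-0.54, limma adjusted p = 0.0426), though with overlapping libraries and a call that ended on leaving out any of 4 libraries (parental replicate 1 or 3, resistant 2 replicate 2 or 3; -0.36 to -0.58).

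SREBF2 fell in parental cells from 189, 214 and 171 CPM to 72.6, 73.9 and 81.8 CPM, with no overlap. The SREBF2 response was -1.31 (SE 0.09, limma adjusted p = 2.228e-09) in parental cells, -0.29 (limma adjusted p = 0.0285) in resistant 1 and -0.03 (limma adjusted p = 0.901) in resistant 2. The resistant 1 call ended without its DMSO replicate 1 or 3 or its ATRA+DAC replicate 1 or 2 (-0.25 to -0.29). INSIG1 fell to 25.7, 39.7 and 38.6 CPM in treated parental libraries and to 16.7, 14.7 and 16.9 in resistant 1, and was at 5.79, 5.32 and 5.83 in resistant 2. The INSIG1 responses were -1.32, -0.66 and 0.17 (SE 0.13 each), of which the last did not pass (limma adjusted p = 0.451). INSIG2 was at 13.8, 13.9 and 14.8 CPM in treated parental libraries, 26.7, 26.1 and 24.0 in resistant 1 and 34.8, 48.3 and 47.5 in resistant 2. It fell in parental cells (-0.53, SE 0.11) and passed in neither resistant population (-0.18 and -0.01), though with the replicate block it passed in resistant 1 (limma adjusted p = 0.0432). Under treatment the opposite order of the 2 anchors was still present, with INSIG1 below parental by 0.99 and 2.45 on the log2 scale (log2 differences -0.99 and -2.45) and INSIG2 above by 0.94 and 1.74 in resistant 1 and resistant 2.

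STARD4 showed the largest fall of any member in parental cells. It went to 81.3, 108 and 112 CPM there, to 132, 134 and 122 in resistant 1 and to 235, 285 and 218 in resistant 2. In each population every treated library was below every untreated one. The response was -2.28 (SE 0.15, limma adjusted p = 1.405e-09) in parental cells, -0.88 (SE 0.15) in resistant 1 and -0.52 (SE 0.15, limma adjusted p = 0.0254) in resistant 2. The resistant 2 call ended without DMSO replicate 2 (-0.46), ATRA+DAC replicate 1 (-0.49) or ATRA+DAC replicate 3 (-0.43). NPC1 rose in parental cells to 181, 200 and 183 CPM (0.74, SE 0.18, limma adjusted p = 0.00167). Treated NPC1 was at 339, 367 and 420 CPM in resistant 1 and 272, 216 and 175 in resistant 2, overlapping the untreated libraries of each population (responses 0.11 and 0.32, SE 0.18). With the replicate block the resistant 2 response passed (limma adjusted p = 0.00453).

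ABCA1 rose in every population, to 44.5, 39.2 and 38.1 CPM in parental cells, 39.9, 39.8 and 38.9 in resistant 1 and 2.01, 1.86 and 2.19 in resistant 2. Treated parental and resistant 1 libraries overlapped, and treated resistant 2 remained 18.2-fold below parental cells (log2 difference -4.19, SE 0.09). The decimal points of treated ABCA1 were placed by a model that partly used the DMSO population differences. The treated gap and the resistant 2 response are therefore not independent of the DMSO gap, and the SE leaves out this uncertainty. The responses were 1.48, 0.97 and 0.88 (SE 0.10 each, limma). In resistant 2 the added pseudocount of 1 CPM is larger than the untreated value and understates the response. ABCG1, by contrast, was at 24.6, 23.8 and 24.0 CPM in treated parental libraries, within the untreated range (0.03, SE 0.18). It rose in resistant 1 to 31.2, 29.4 and 29.3 CPM (1.04, SE 0.18, limma adjusted p = 4.816e-04), above every parental library. In resistant 2 it was at 101, 76.5 and 58.1 CPM (0.44, SE 0.18, limma adjusted p = 0.112), overlapping the untreated libraries; it passed with the replicate block (limma adjusted p = 1.833e-04), and without resistant 2 DMSO replicate 1 (0.69) or ATRA+DAC replicate 3 (0.64). MYLIP responded by 0.33 in parental cells and by -0.40 in resistant 2, calls that ended without parental DMSO replicate 2 (0.23) or ATRA+DAC replicate 3 (0.29), and without resistant 2 DMSO replicate 1 (-0.28) or ATRA+DAC replicate 2 (-0.36) or 3 (-0.34), while NR1H3 and NR1H2 passed in no population. With the replicate block, MYLIP also fell in resistant 1 (-0.29, limma adjusted p = 0.0033), as did HSD17B7 (-0.20), NSDHL (-0.24) and SC5D (-0.18), and EBP (0.25) and SQLE (0.19) rose in resistant 2.

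**Figure D3:**
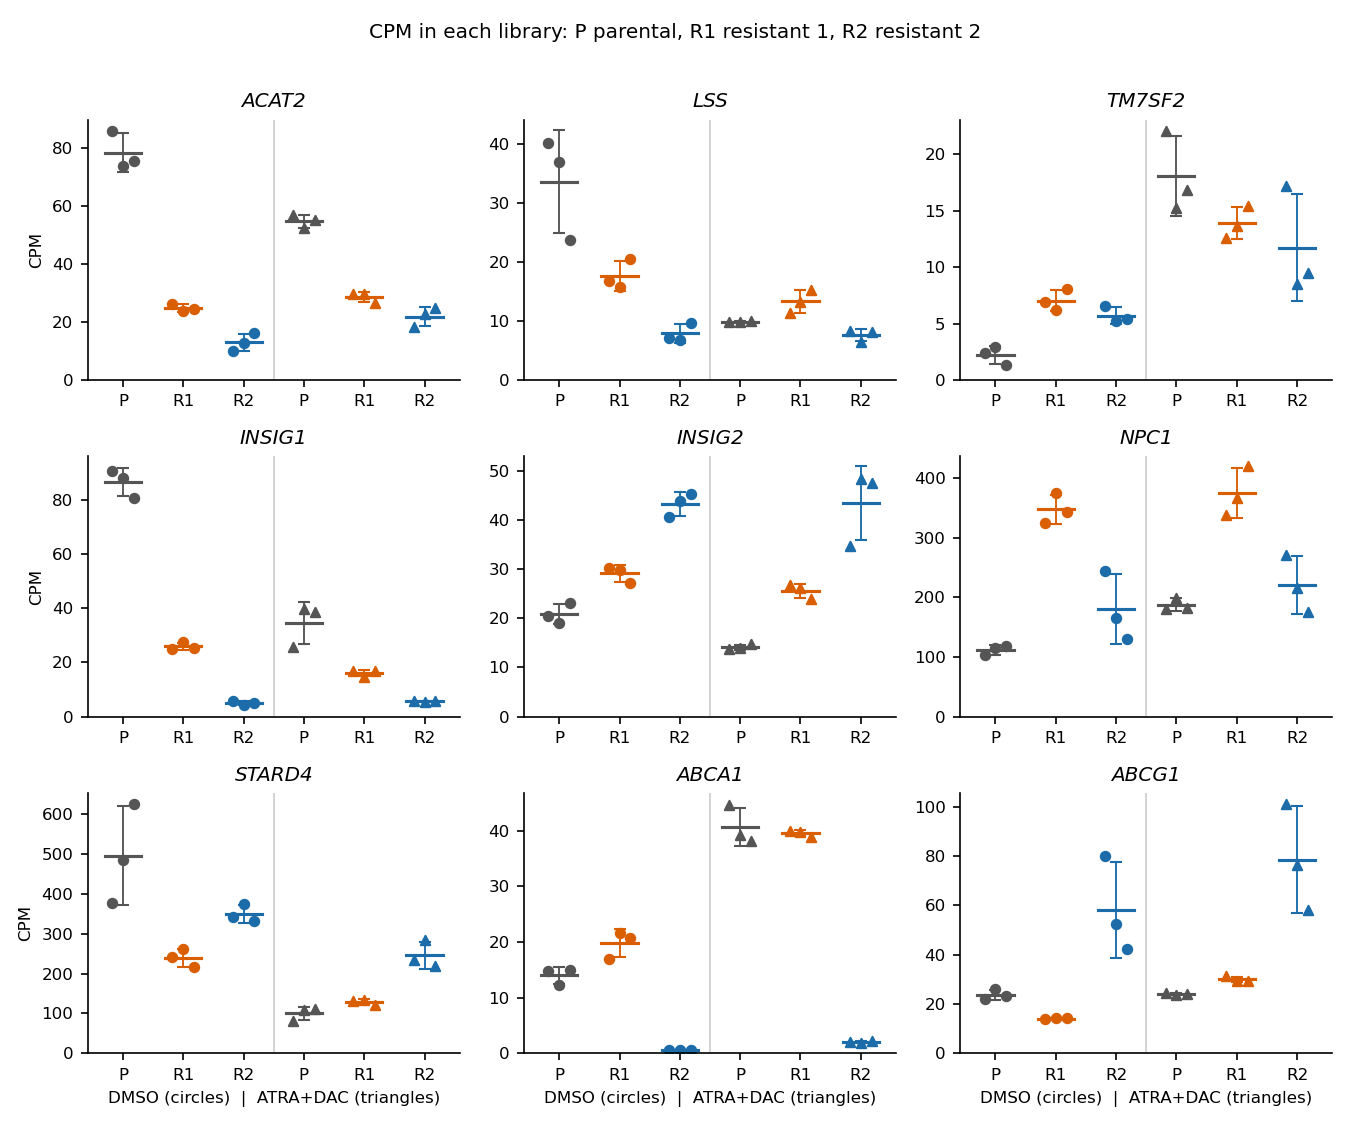
CPM of 9 members in each of the 18 libraries, for parental (P), resistant 1 (R1) and resistant 2 (R2) cells in DMSO (circles) and ATRA+DAC (triangles). Horizontal lines are group means and bars ± SD (n = 3); axes start at 0. ABCA1 is near 0 in resistant 2 in both treatments, and INSIG1 and INSIG2 run in opposite orders across the populations. The treated ABCA1 values rest on decimal points placed by a model that partly used the DMSO population differences.

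The responses themselves differed between populations. Of 28 members, 13 had a higher and 4 a lower response in resistant 1 than in parental cells, beside 43.3% of all genes called (17.3% higher, 26.1% lower). In resistant 2, 16 had a higher and 4 a lower response, beside 48.5% called (19.5% higher, 29.1% lower). The median difference of response was 0.47 and 0.49, beside -0.04 over all genes in both. Both differences use the same parental libraries. A higher value here meant a smaller fall than in parental cells (as for STARD4), no called change, or a rise (as for ACAT2 in resistant 2). DHCR7 differed by 1.62 in resistant 1 and 1.48 in resistant 2 (SE 0.21 each), and STARD4 by 1.39 and 1.76 (SE 0.22 each). LSS differed by 1.25 and 1.59 (SE 0.25 each), SREBF2 by 1.03 and 1.28 (SE 0.13 each) and FDPS by 0.92 and 1.22 (SE 0.09 each). TM7SF2 (-1.70 and -1.72, SE 0.31 each) and MYLIP (-0.62 and -0.73) responded lower, as did NSDHL (-0.43 and -0.33). The NSDHL calls ended without parental DMSO replicate 2 (-0.28 and -0.20), and the resistant 2 call ended under 7 other omissions of 1 library as well. ABCA1 also passed as lower (-0.51 and -0.59, SE 0.14 each), but the resistant 1 call ended without parental DMSO replicate 2 (-0.30), and in resistant 2 the sign turned when reads were tested without a pseudocount (0.13 by edgeR, 0.15 by DESeq2).

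Between the resistant populations the responses differed in 3 members, all lower in resistant 1, beside 5.15% of all genes called (1.67% lower). They were INSIG1 (-0.82, SE 0.18, limma adjusted p = 0.0141), SQLE (-0.44) and MSMO1 (-0.37), whose call ended on leaving out 10 of the 12 libraries compared, 1 at a time. Limma called 0 members higher in resistant 1 (3.49% of all genes), with 1 at an unadjusted p under 0.05 and 0 called by edgeR or DESeq2. With the replicate block in each population, 6 were lower and 1 higher (6.29% and 8.2% of all genes): ACAT2 (-0.53), STARD4 (-0.37) and FDPS (-0.30) were added to the lower, and ABCG1 (0.60) was the higher one. Without a pseudocount, ABCA1 was lower in resistant 1 (-0.67 by edgeR, adjusted p = 0.0308, and -0.65 by DESeq2, adjusted p = 0.0238), whereas limma gave 0.09.

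Compared under treatment, resistant 1 had about as many members above parental cells as below, and resistant 2 more below. In ATRA+DAC, 12 members were higher and 10 lower in resistant 1 than in parental cells, beside 67% of 19839 genes called (34.9% higher, 32.1% lower). In resistant 2, 7 were higher and 16 lower, beside 72.2% called (37.9% higher, 34.3% lower). The median difference was 0.00 and -0.35, beside 0.02 and 0.05 over all genes. Several genes were above parental cells: DHCR7 in both (0.82 and 0.62, SE 0.10 each), STARD4 likewise (0.46 and 1.43, SE 0.13 each), and LSS (0.51), SREBF2 (0.45) and MSMO1 (0.55) in resistant 1. ACAT2 (-0.85 and -1.20), IDI1 (-0.75 and -0.48), HMGCS1 (-0.37 and -0.77) and EBP (-0.32 and -0.87) were lower in both; the IDI1 call in resistant 2 ended without parental replicate 2 (-0.43). ABCG1 was above parental in both (0.40 and 1.80), but in resistant 1 the call ended under each omission of 1 library (0.36 to 0.42). Resistant 1 and resistant 2 still differed in 20 of 28 members, 17 higher and 3 lower in resistant 1, beside 58.2% of all genes called (29.3% higher, 29% lower). Without resistant 2 replicate 1, 5 were lower. The 3 lower were STARD4 (-0.97), INSIG2 (-0.80) and ABCG1 (-1.40).

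**Figure D4:**
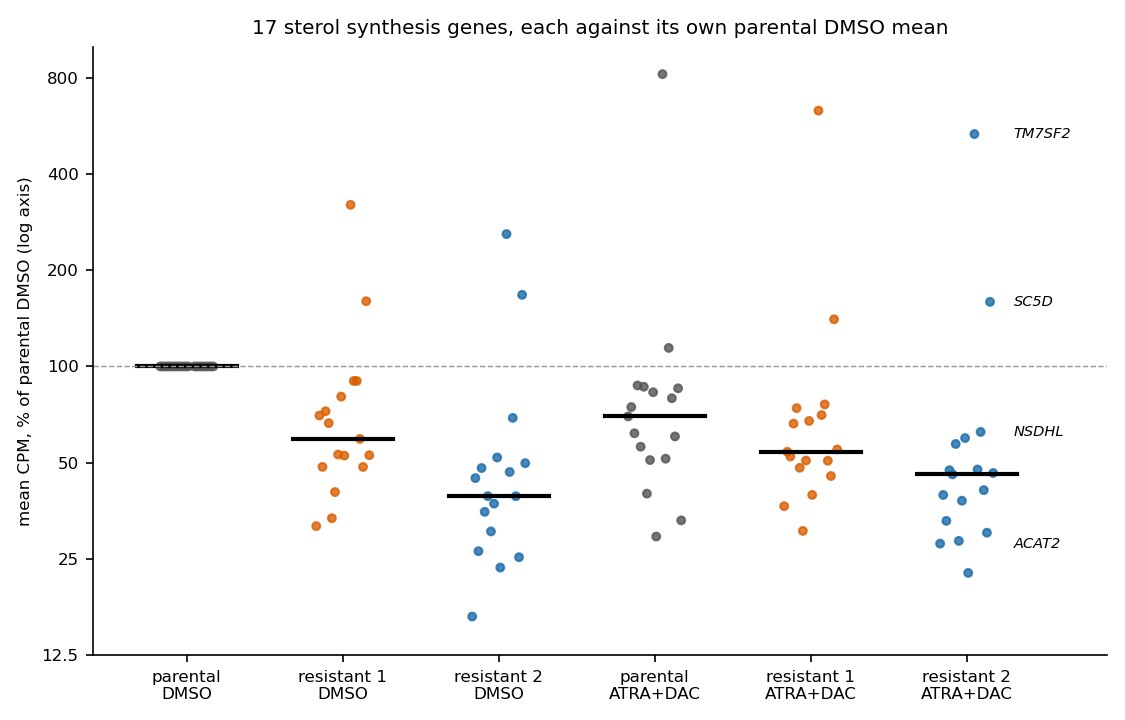
Mean CPM of 17 synthesis genes as a percentage of each gene's own parental DMSO mean, on a log axis, in the 6 groups (n = 3 libraries each). Black bars are medians over genes: 69.8% in treated parental cells, 59.4% and 54.1% in untreated and treated resistant 1, and 39.3% and 45.9% in untreated and treated resistant 2.

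Expressed against each gene's untreated parental mean, the 17 synthesis genes with values in both treatments had a median of 69.8% in treated parental cells. The median was 59.4% in untreated and 54.1% in treated resistant 1, and 39.3% in untreated and 45.9% in treated resistant 2. In each of these groups 15 of 17 genes were below the untreated parental mean. TM7SF2 was the highest in all, up to 822% in treated parental cells.

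The members whose levels ran most alike over the 6 group means (log2 scale, all from the same 18 libraries) were MVK and EBP (Pearson r = 0.99). INSIG1 ran closest to EBP (0.99), SREBF2 to LSS (0.98), and FDPS to FDFT1 (0.96). TM7SF2 had no close partner among the members (highest 0.59, with NPC1). NR1H2 ran opposite to HSD17B7 (-0.98). These are descriptions over 6 points.

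Other genes of the pathway, in 6 lists, had medians near 0 in DMSO. Of 58 tested, 22 were higher and 16 lower in resistant 1, and 24 higher and 12 lower in resistant 2, with medians of 0.10 and 0.06. These are 65.5% and 62.1% called, beside 55.9% and 61.9% of all genes. Among 6 lipoprotein receptors, the sorting receptor SORT1 was higher in both (2.41 and 2.21), LRP1 was higher in both (1.23 and 3.77) and SCARB1, the high-density lipoprotein receptor, lower (-0.69 and -1.36). Among 19 genes of sterol transport and esterification, 9 were higher and 4 lower in resistant 1, and 8 higher and 4 lower in resistant 2, including TMEM97 (-2.37) and SOAT1 (-1.33), the latter a cholesterol-esterifying enzyme. Among 7 other LXR targets, PLTP, the phospholipid transfer protein, was lower in both (-1.44 and -6.55). The list as a whole did not follow PLTP in resistant 1. Its summed normalized count in DMSO ranged from 20374 to 22404 among parental libraries. The sum ranged from 22869 to 27045 for resistant 1 and from 19268 to 22211 for resistant 2. Of 10 genes of the isoprenoid branch, 7 were lower and 1 higher in resistant 1, and 3 lower and 1 higher in resistant 2. PDSS1, which builds the ubiquinone side chain, was lower in both (-1.03 and -1.93), and DHDDS, for dolichol, higher (0.89 and 0.74). In 12 genes of SREBP processing and sterol-regulated degradation, 4 were higher in resistant 1, and 5 higher and 1 lower in resistant 2, with medians of 0.07 and -0.04. The ligase gene RNF145 was higher in resistant 1 (1.05), and ERLIN1 was the one lower in resistant 2 (-1.11).

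In parental cells 28 of 55 such genes fell and 13 rose (74.5% called, beside 64.5% of all genes, 28.4% lower and 36% higher). The site-2 protease gene MBTPS2, which completes the release of SREBP2, fell (-1.26), as did ERLIN1 (-1.15), the lipoprotein receptors LRP8 (-1.48) and VLDLR (-0.91), and the prenyl transferase gene COQ2 (-0.91). SORT1 (1.53), PLTP (2.17) and ABCG4 (1.95) rose. Of oxysterol genes, CYP39A1 fell (-2.00) and CYP27A1 rose (1.06). In resistant 1 and in resistant 2, 13 fell and 7 rose (36.4% called, beside 28.9% and 19.8% of all genes), while the 12 genes of SREBP processing had 7, 3 and 2 falls in parental, resistant 1 and resistant 2 cells.

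Counting limits apply to some members. The strand setting used in counting is not given in the sources used here, and 16 members overlap a gene on the opposite strand. Apart from ACAT2, the partner was the more abundant for MVK (MMAB, 3234 beside 1507 mean normalized counts in DMSO) and NR1H3 (ACP2, 2041 beside 528). Pseudogenes are named after 3 members. HSD17B7P2 averaged 64.1 normalized counts in DMSO beside 1179 for HSD17B7. CYP51A1P2 and CYP51A1P1 averaged 26.5 and 19.1 beside 398 for CYP51A1. Those of FDPS averaged at most 6.51 beside 20317 for FDPS.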

How the data were processed

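Poly(A) RNA was sequenced with a stranded kit, per the labels' protocols. Reads were handled with FastQC, MultiQC, STAR, featureCounts and DESeq2 on GRCh38 (hg38), per the submitters' processing notes; the sources used here name no versions, annotation or strand setting. The authors deposited 1 table per treatment of gene counts divided by each library's DESeq2 size factor, a normalized signal. Every value of the DMSO table was a whole multiple of 1 step within 0.01 reads (100%), so reads were recovered. In the deposited ATRA+DAC table values had lost their decimal points. These were restored from the whole-read rule and a negative binomial model across libraries and groups, and genes kept at a posterior of 0.99. This resolved 19839 of 25191 genes (78.8%; 95.5% of genes with a mean of at least 1000), left out 5352, and gave values for 28 of 30 members. On the DMSO table with its points removed, 33 of 149841 values in resolved genes were wrong. That test ran a first version of the model, without population differences. It does not cover genes that only the later version resolved. The model was given the DMSO population differences after the first version had left ABCA1 unresolved. Of the treated genes, 19194 were resolved by both versions, and none of these was restored otherwise.

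Populations were compared within a treatment with limma (3.58.1, R 4.3.3) on log2(normalized count + 1), for genes reaching 10 normalized counts in 3 or more of 9 libraries. Responses and their differences were fitted on log2(CPM + 1) of recovered reads with TMM factors over 18 libraries. This gave 21643, 19839 and 19925 genes; Benjamini-Hochberg adjustment ran over each whole table, with a threshold of 0.05. A log2(value + 1) scale understates changes of low genes. Replicates of a group differed by far more than sampling noise (chi-square over its degrees of freedom, 8.92 to 318). Replicate numbers were tested for pairing by the correlation of same-numbered libraries' deviations from their group means. Between treated and DMSO libraries it was over 0.1 in all 3 pairs of resistant 1 (0.39 to 0.86) and of resistant 2 (0.74 to 0.85), and in 2 of 3 of parental cells (-0.24 to 0.46), so the pairing comes from the data and holds in the resistant populations. The design had no block; a block of replicate number within each population was added after the data were seen, and its values are given beside the responses it changes. On simulated counts for the DMSO comparison of resistant 1 with parental cells (21643 genes), 14.9%, 65.7% and 90.9% of changes of 1.5-, 2- and 4-fold were found, and 5.79% of calls were false. For the same comparison in ATRA+DAC (19839 genes) these were 55.2%, 82.1% and 100%, with 7.06% false. For the parental response (19925 genes) they were 52.2%, 80.6% and 98.5%, with 4.35% false. Only a small part of the genes was changed in these simulations, whereas 55.9%, 67% and 64.5% of all genes were called in the data. The Benjamini-Hochberg threshold depends on that share, so the shares found may be too low for these data. Alternatives were edgeR (4.0.16), DESeq2 (1.42.0), other pseudocounts, filters and scalings, a replicate block, a stricter posterior and leaving out each library. Values in every library are given for the 9 members that were among the 3 largest called differences (mean of at least 50 normalized counts) in a comparison or response, and up to 4 called genes per other list could be named by size; the SREBF2 values by library were added after they had been seen. The members and lists were chosen with earlier results of these data known. Gene positions are from GENCODE 29 on GRCh38.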

Additional observations from a re-analysis of the deposited data

Results flagged for a closer look

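These results are listed because the response to ATRA plus decitabine differed between 2 populations, by the test of the difference itself (limma, adjusted p under 0.05). Values are differences of response in log2(CPM + 1), positive where the first population had the higher response. For resistant 1 minus parental cells they were ABCA1 (-0.51), ABCG1 (1.01), ACAT2 (0.71), DHCR7 (1.62), EBP (0.61), FDFT1 (0.91), FDPS (0.92), IDI1 (0.72), INSIG1 (0.66), LSS (1.25), MSMO1 (0.59), MVK (0.72), MYLIP (-0.62), NSDHL (-0.43), SREBF2 (1.03), STARD4 (1.39), TM7SF2 (-1.70). For resistant 2 minus parental cells they were ABCA1 (-0.59), ACAT2 (1.24), DHCR7 (1.48), EBP (0.95), FDFT1 (1.00), FDPS (1.22), HSD17B7 (0.36), IDI1 (0.72), INSIG1 (1.49), INSIG2 (0.52), LSS (1.59), MSMO1 (0.96), MVD (1.04), MVK (0.89), MYLIP (-0.73), NSDHL (-0.33), SQLE (0.46), SREBF2 (1.28), STARD4 (1.76), TM7SF2 (-1.72). For resistant 1 minus resistant 2 they were INSIG1 (-0.82), MSMO1 (-0.37), SQLE (-0.44). Groups of 3 libraries were not tested for outlying samples.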

How the results depend on the processing

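Over 342 pairs of member and comparison there were 5820 alternative values. Of these, 5571 counted as unchanged, 160 lost a call, 85 gained one and 4 reversed. A value that passed in neither the main nor the alternative fit counted as unchanged, whatever its direction. The reversals were all of ABCA1: its response in resistant 2 minus parental was 0.13 by edgeR and 0.15 by DESeq2 (-0.59 by limma), and in resistant 1 minus resistant 2 it was -0.67 and -0.65 (0.09 by limma). Its untreated level in resistant 2 is below the pseudocount of 1 CPM; with a pseudocount of 0.1 the first was -0.01. At a posterior stricter by 10 times, which keeps 21 of 28 members, falls numbered 3 in resistant 1 and 1 in resistant 2, and the response of resistant 1 was higher than parental in 8 and lower than resistant 2 in 1. Falls in resistant 2 numbered 1 with no filter on low values. Lower responses of resistant 2 against parental numbered 2 by edgeR, and a pseudocount of 5 gave 1 higher response of resistant 1 than resistant 2; the cause was not tested. Leaving out 1 library gave 3 to 5 members lower in resistant 1 than resistant 2 under treatment (5 without resistant 2 ATRA+DAC replicate 1), 0 to 2 falls in resistant 2 (0 without ATRA+DAC replicate 3), 2 to 5 lower responses of resistant 1 than parental (2 without parental DMSO replicate 2), and 2 to 5 of resistant 1 than resistant 2 (5 without resistant 2 DMSO replicate 3 or ATRA+DAC replicate 1).

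The labels number replicates 1 to 3 in each group but do not say that a number is shared. Same-numbered libraries deviated together (correlation over 0.1) in 22 of 45 pairs over all groups, and 11 of 18 libraries correlated best with their own number; between treatments they did in all 6 pairs of the resistant populations. With the replicate block within each population, falls in resistant 1 numbered 13 (7 without), rises in resistant 2 numbered 8 (4 without), and the response of resistant 1 was lower than that of resistant 2 in 6 (3 without) and higher in 1 (0 without); no call was lost. With 1 replicate block shared by all populations, 16 and 21 members were lower and 5 and 6 higher in resistant 1 and resistant 2 in DMSO, and 16 fell in parental cells (17 without it). That shared block ended the calls of SCAP (resistant 2, DMSO), IDI1 and MVD (between the resistant populations, DMSO), and MVD (parental response, adjusted p = 0.0558, and resistant 2 minus parental, adjusted p = 0.052). Depth was 113.2M reads or more. With 3 libraries per group, a change of 1.5-fold was found in 14.9% of simulated cases in DMSO. It was found in 55.2% in ATRA+DAC and in 52.2% for the parental response. Those simulations changed far fewer genes than were called in the data, so they may understate what could be found here.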
